A study of Rattus norvegicus with 18 samples.

Results

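The early answer of FRT/TSHR cells to thyroid-stimulating hormone (TSH) was read from 6 arrays, 3 of cells given bovine TSH for 30 min and 3 of cells left without it, out of 18 arrays in the series. These 6 samples were chosen by title alone, without use of a measured value, and all probe sets except the AFFX controls were compared. The genes named, the lists and the tests were chosen with earlier results of these data known. FRT/TSHR is an established rat line described in the labels as de-differentiated thyrocytes, and its name states that it carries the TSH receptor; how that receptor was introduced, and whether the line is 1 clone, are not given in the sources used here. Cells grew in Coon's modification of Ham's F12, spent 12 h without serum, and received TSH at 1 U/L. Basal cells of the same line were untreated, and 3 further arrays of the line, taken after 17 h of TSH, share that basal group. FRTL5, a differentiated rat thyrocyte line, was sampled at the same times with 3 arrays per group, but after 5 days in TSH-free medium and with TSH at 0.1 U/L. The series followed what TSH changes over time in both lines. Expression is given as log2 values per probe set, so a difference of 1 is a doubling, and errors of differences are limma standard errors (SE).

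TSH binds a receptor coupled to the stimulatory G protein, which switches on adenylyl cyclase. The cyclic AMP made there frees protein kinase A, which phosphorylates the transcription factor CREB, and in thyrocytes TSH controls both growth and hormone production through this route. Immediate early genes are those that answer a signal within minutes without new protein synthesis. They code for transcription factors such as Egr1, Fos and the Nr4a receptors, for phosphatases that shut MAP kinases off again, and for secreted factors. CREB acts on them through the cyclic AMP response element (CRE), and serum response factor through the CArG box.

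The line's label was checked against marker genes. Thyroglobulin (Tg), the hormone precursor, had a basal level of 4.17, above only 24.0% of probe sets, against 11.2 in FRTL5, and the iodide transporter Slc5a5 was at 5.76. The thyroid transcription factor Pax8 was at 8.58, the thyroid and kidney cadherin Cdh16 at 10.9 and Tshr at 6.60. Of 11 epithelial markers measured 10 lay above the array median, among them Krt8 at 10.6, while leukocyte, mesenchymal and endothelial markers spread around it. Of 17 mesenchymal markers 10 lay below the array median, but S100a4, at 11.33, and Sparc, at 10.95, lay above Krt8. The 6 arrays correlated at 0.981 to 0.993, with array medians of 5.47 to 5.55, and actin 3' minus 5' differences from -0.14 to 0.16. The median SD of a probe set was 0.135 in basal and 0.160 in 30 min cells.

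The 30 min array numbered 1 stood apart on some genes before any test. On the 30 min array numbered 1 the DNA replication genes lay on average 0.66 below the basal mean, against 0.12 and 0.14 below on the arrays numbered 2 and 3. That array also held the highest Cd74, 7.36 against 6.18 to 6.45 on the other 5, and the highest clusterin (Clu), 10.11 against 8.91 to 9.38. It did not carry the Egr1 signal of the arrays numbered 2 and 3. Results that turn on it are therefore given with and without it, and its part in them was not tested further. It was singled out partly by its low Egr1 value. For Egr1 and genes of the same shape the difference without it is therefore larger by that choice. Between the basal and 30 min arrays numbered 3, 91 probe sets were lower by 1 or more. The counts were 59 for the number 1 and 12 for the number 2. Differences that rest mainly on the number 3, such as that of Matr3, are given only with it.

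No probe set passed. In limma with Benjamini-Hochberg adjustment 0 of 8740 probe sets (0%) had an adjusted p under 0.05, and the smallest adjusted p was 1.00. At an unadjusted p under 0.05 there were 208 (2.38%), of which 83 (0.95%) were higher and 125 (1.43%) lower at 30 min. In 475 probe sets (5.43%) all 30 min arrays lay above all basal arrays, and in 210 (2.4%) below them. With the replicate number as a block, 0 passed as well, although 587 had an unadjusted p under 0.05 and the smallest adjusted p was 0.696. Without the 30 min array numbered 1 the count was again 0, with a smallest adjusted p of 0.0598 and 344 probe sets at an unadjusted p under 0.05. The differences themselves were small: 6 probe sets differed by 1 or more, and the median 95% interval reached 0.31 to either side, a 1.24-fold change. That width is for a single probe set without adjustment, and with 3 arrays a group a call over all probe sets needed a larger change. Mal, at -0.81 ± 0.17, did not pass. Everything below is therefore a description of values, and basal cells were the only untreated group, so time or handling and TSH cannot be told apart.

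**Figure D1:**
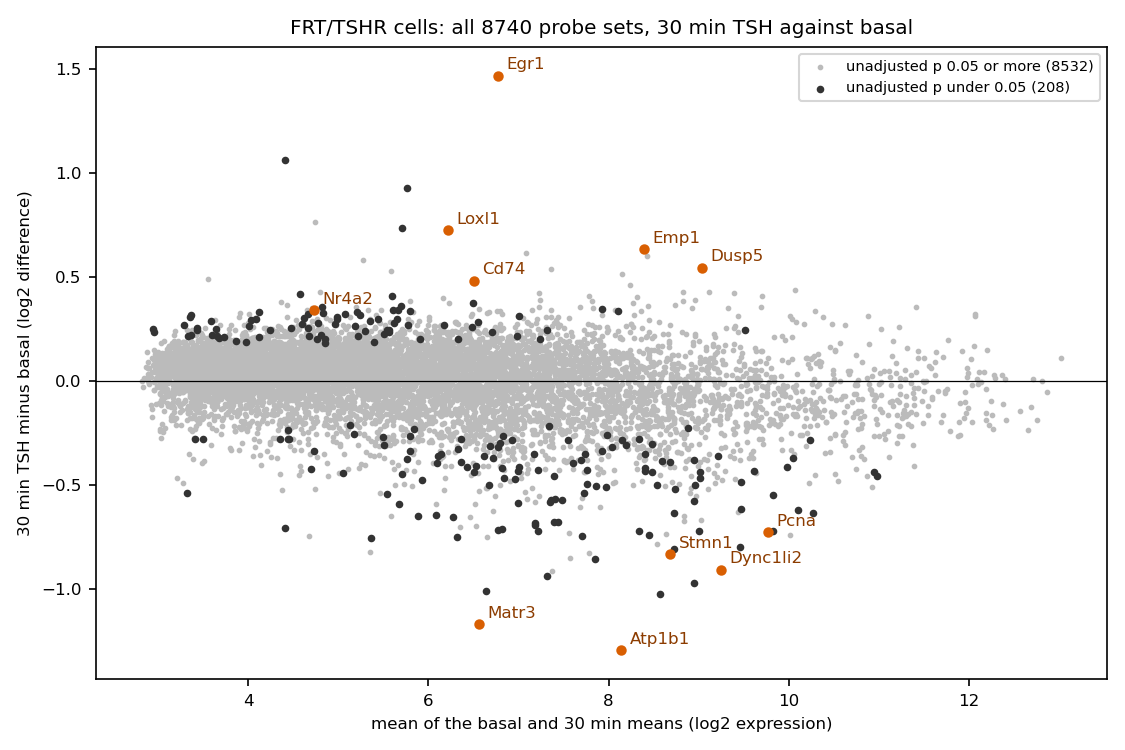
Difference between 30 min TSH and basal (log2, y axis) against the mean level (log2, x axis) for all 8740 FRT/TSHR probe sets, with the 208 at an unadjusted p under 0.05 in black and named genes in orange. Egr1 sits highest at 1.47, and a probe set of Atp1b1 lowest at -1.29.

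Egr1, a zinc finger transcription factor of the growth response, had the largest positive difference of all probe sets. Its 3 basal arrays read 6.09, 5.88 and 6.16, and its 30 min arrays 5.72, 8.74 and 8.06. The groups overlapped, because the array numbered 1 lay below all basal arrays while those numbered 2 and 3 lay 2.86 and 1.90 above their partners. The difference of means was 1.47 ± 0.58 (SE; 95% interval 0.23 to 2.71; 2.76-fold), with an unadjusted p of 0.0235 and an adjusted p of 1.00 in limma. Without the 30 min array numbered 1 it was 2.36, with an adjusted p of 0.0785 in limma, and without the array numbered 2 it was 0.85. Because the array numbered 1 was singled out partly by its Egr1 value, the larger difference without it is no added evidence. The other 3 Egr1 probe sets had the same shape at smaller size, with differences of 0.58, 0.37 and 0.25. A probe set without a gene symbol in the annotation gave the second largest difference, 1.06, from 3.68, 3.95 and 3.99 to 3.85, 5.68 and 5.27. Which gene it measures was not tested, so it need not be a gene apart from Egr1.

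The promoters of 4 early genes are shown because they hold, in close view, the elements through which cyclic AMP and serum response factor are known to act. They run from 200 to 31 bases before the start site, 5′ to 3′ along the gene, and come from RefSeq on build GRCr8, with capitals marking a full CRE (TGACGTCA, its own reverse complement) or a CArG box. Areg lies on the minus strand at chr14:17265672-17265841, Dusp1 on the plus strand at chr10:17184653-17184822, Egr2 on the minus strand at chr20:21054472-21054641 and Dusp5 on the plus strand at chr1:262543574-262543743.
Areg: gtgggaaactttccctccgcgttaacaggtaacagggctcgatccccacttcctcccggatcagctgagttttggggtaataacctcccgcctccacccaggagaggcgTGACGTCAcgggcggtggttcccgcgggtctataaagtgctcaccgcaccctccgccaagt
Dusp1: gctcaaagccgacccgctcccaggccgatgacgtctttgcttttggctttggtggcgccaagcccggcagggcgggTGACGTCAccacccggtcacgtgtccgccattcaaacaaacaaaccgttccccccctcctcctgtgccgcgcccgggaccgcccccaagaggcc
Egr2: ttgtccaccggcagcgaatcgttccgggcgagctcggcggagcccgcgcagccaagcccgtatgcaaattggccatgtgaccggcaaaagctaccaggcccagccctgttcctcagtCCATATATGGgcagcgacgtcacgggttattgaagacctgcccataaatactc
Dusp5: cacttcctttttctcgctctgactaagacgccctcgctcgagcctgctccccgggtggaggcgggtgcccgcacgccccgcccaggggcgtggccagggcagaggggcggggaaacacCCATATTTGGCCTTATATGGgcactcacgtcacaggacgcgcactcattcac
Areg and Dusp1 each held 1 full CRE, at -91 and -124 from the start site, while Egr2 held 1 CArG box at -83 and Dusp5 held 2, at -82 and -72. Across 33469 promoter windows of 250 bases before the start site, 1.59% held the full CRE, 18.2% the shorter core TGACG on either strand, which the full CRE contains, and 1.5% a CArG box. Egr1 had 2 CArG boxes (at -105 and -83) and 2 shorter cores, Nr4a1 had 4 cores, and Nr4a2 and Junb had 1 core each. Egr2 and Dusp5 also held 1 core each, at -66 and -55, beside their CArG boxes. Of the 43 immediate early transcription factor genes listed, whether measured on the arrays or not, 32 were matched to a promoter. Among these 32, 4 (12.5%) held a full CRE and 18 (56.2%) a core. Counted in the same way per gene, the shares among the 3879 measured genes with a promoter were 2.37% and 25.7%. A match describes letters only. Of the 92 measured genes with a full CRE 54.3% had a higher mean at 30 min, with a median difference of 0.02, beside 56.3% and 0.02 for all 3879 measured genes with a promoter in the table. For the 64 genes with a CArG box the values were 64.1% and 0.06.

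Among the phosphatases that return MAP kinases to rest, Dusp1 and Dusp5 were high on the same 2 arrays as Egr1. Dusp1 read 8.65, 8.61 and 8.59 in basal cells and 8.64, 9.16 and 9.32 at 30 min. Its difference was 0.43 ± 0.25 (95% interval -0.10 to 0.95; unadjusted p 0.104), and its other probe sets gave 0.60 and 0.62. Dusp5, which acts on ERK in the nucleus, read 8.80, 8.82 and 8.67 against 8.66, 9.58 and 9.69, a difference of 0.54 ± 0.33. On these brightest probe sets the array numbered 1 at 30 min lay within or below the basal arrays, and the others lay above all of them. On the Dusp1 probe set with 0.62 this did not hold, since the array numbered 1, at 7.28, lay above all basal arrays and the one numbered 2, at 7.05, did not. Without that array the differences were 0.63 for Dusp1 and 0.87 for Dusp5.

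Of 8 MAP kinase feedback genes measured, 7 had a higher mean, with a median difference of 0.13, but 0 passed in limma and 0 had groups that did not overlap upward (background 5.64% of genes). In the pairs of same-numbered arrays the list's medians were -0.03, 0.23 and 0.21. The exception was Ier3, an early gene that prolongs ERK signalling, which read 9.07, 9.02 and 9.16 in basal cells and 8.67, 8.58 and 8.88 at 30 min. All 3 of its 30 min arrays lay below all basal arrays, at a difference of -0.37 ± 0.24, as happened for 2.45% of genes. On its second probe set the groups overlapped, at a difference of -0.22 ± 0.23, with pair differences of -0.26, -0.25 and -0.14.

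**Figure D2:**
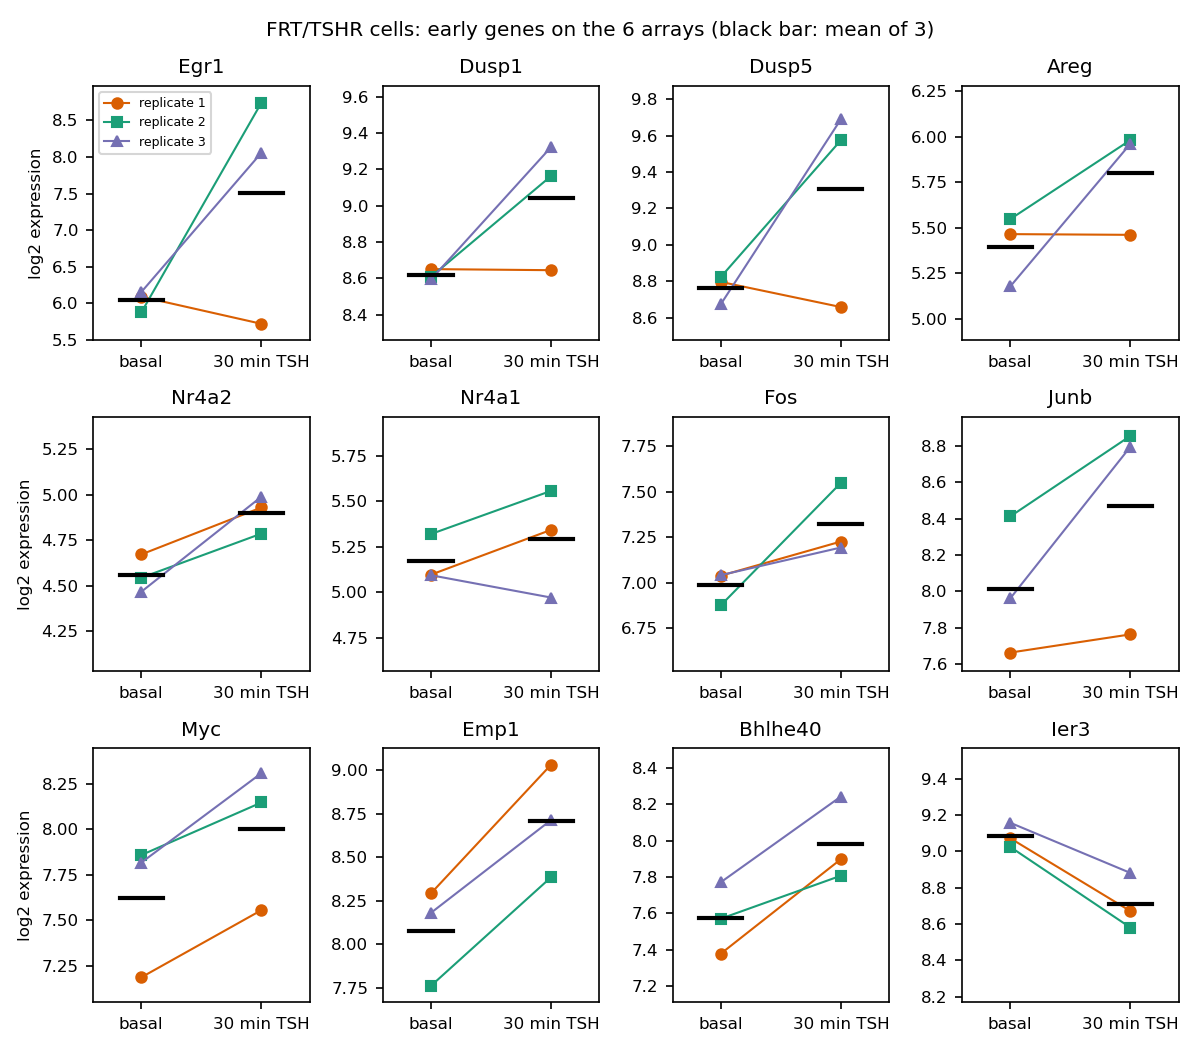
Log2 expression (y axis) of 12 genes on the 3 basal and 3 TSH 30 min FRT/TSHR arrays, with lines joining arrays of the same replicate number and black bars at the group means. Egr1, Dusp1, Dusp5 and Areg are high on arrays 2 and 3 and not on array 1 (Egr1 at 5.72 there), while Nr4a2, Emp1, Bhlhe40 and Myc are higher, and Ier3 lower, in all 3 pairs.

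Of the AP-1 genes, Junb and Jun were higher mainly in pairs 2 and 3, and Fos in all 3 pairs. Junb, a subunit of AP-1, read 7.66, 8.41 and 7.96 and then 7.76, 8.86 and 8.80. Jun gave pair differences of -0.09, 0.42 and 0.60. Fos, the partner of Jun proteins, was higher in all 3 pairs, from 7.04, 6.87 and 7.04 to 7.23, 7.55 and 7.19, so that its groups did not overlap on that probe set. Its difference was only 0.34 ± 0.46 (unadjusted p 0.477), where limma's error pools all 6 groups and the FRTL5 30 min arrays had an SD of 1.52, and its other probe sets, at 0.48 and 0.23, overlapped. Myc, which drives cell growth, was higher in all 3 pairs by 0.37, 0.29 and 0.49, but its groups overlapped because the arrays numbered 1 were low in both groups.

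The nuclear receptor genes of the Nr4a family, which are early targets of cyclic AMP, differed little. Nr4a2 read 4.67, 4.54 and 4.47 in basal cells and 4.93, 4.79 and 4.99 at 30 min, without overlap. The difference was 0.34 ± 0.13 (unadjusted p 0.0216, adjusted p 1.00 in limma) at a low level, and the second probe set gave 0.07. Nr4a1 had a difference of 0.12 ± 0.33 (95% interval -0.58 to 0.82) and Nr4a3 one of 0.08 ± 0.10. The interval for Nr4a1 leaves room for a 30 min increase of 0.82, but not for the increase of 3.41 measured in FRTL5.

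Taken as a list, immediate early transcription factors leaned upward without any single call. Of 33 measured, 26 (78.8%) had a higher mean at 30 min, against 57.1% of all 4736 genes, and the median difference was 0.14 against 0.03. In limma 0 passed, 2 had an unadjusted p under 0.05 upward (background 0.845%), 5 had higher groups without overlap (background 5.64%) and 1 lower. The 5 were Nr4a2, Fos, Egr2, Bhlhe40 and Hes1. Members below basal included Id3, an inhibitor of helix-loop-helix factors, at -0.41 ± 0.23, and Klf10 at -0.17 ± 0.13. Against the basal mean the list's average was -0.04 on the 30 min array numbered 1 and 0.28 and 0.26 on those numbered 2 and 3, while the basal array numbered 1 was itself at -0.11. Without the 30 min array numbered 1 the median was 0.17 and 25 members were higher. This list was chosen with earlier results of these arrays known, so its direction is not independent evidence.

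The cAMP-CREB targets, of which 9 of 28 measured also stood on the previous list, had 21 members with a higher mean and a median difference of 0.11. Here 0 passed in limma, 3 had an unadjusted p under 0.05 upward (background 0.845%) and 5 did not overlap upward (background 5.64%). Members that are not early transcription factors included the phosphodiesterases Pde3b and Pde4d, which break down cyclic AMP, at 0.19 and 0.18 with no overlap. Crem, the gene of a CREB relative with an early repressor form, had a difference of -0.04 ± 0.18, and its sign depended on the array numbered 3. Another Crem probe set was higher without overlap at 0.16 ± 0.10, by 0.18, 0.09 and 0.22 in the pairs, and the other two were at -0.04 and 0.01. The kinase gene Sgk1 was at -0.29 ± 0.21.

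Among secreted and surface early genes, 16 of 24 had a higher mean, with a median of 0.07; 1 had an unadjusted p under 0.05 upward (background 0.845%) and 2 did not overlap upward (background 5.64%). The 1 was Areg, the gene of the EGF receptor ligand amphiregulin, which read 5.46, 5.55 and 5.18 in basal cells and 5.46, 5.98 and 5.96 at 30 min. Its arrays numbered 2 and 3 lay above all basal arrays and its array numbered 1 did not. The difference was 0.41 ± 0.16 (95% interval 0.06 to 0.75; unadjusted p 0.0247, adjusted p 1.00 in limma), and 0.58 without the array numbered 1. Ptgs2, the inducible prostaglandin synthase, was higher without overlap at 0.20 ± 0.10, but its second probe set gave -0.01. Ccn1, a matricellular factor, ran from -0.78 in pair 1 to 1.04 in pair 3 and had a mean difference of 0.24 ± 0.45. Follistatin (Fst) and the hyaluronan synthase Has2 were at -0.18 and -0.12.

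The pathway upstream of these genes lay close to the median of all genes. Of 35 genes of the TSH receptor and cyclic AMP signalling route 21 had a higher mean, with a median of 0.04, and 0 had an unadjusted p under 0.05. Tshr itself read 6.47, 6.75 and 6.57 and then 6.59, 6.85 and 6.48, a difference of 0.05 ± 0.15. The adenylyl cyclase genes Adcy3 and Adcy4 were at 0.24 and -0.20, the stimulatory G protein gene Gnas at -0.20 ± 0.13 and the inhibitory Gnai2 at 0.28 ± 0.22. For the latter, 2 other probe sets gave -0.10 and 0.09.

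The 12 largest positive differences without overlap included genes outside the early gene lists. Emp1, a gene of an epithelial membrane protein, had 8.29, 7.76 and 8.18 in basal cells and 9.03, 8.39 and 8.71 at 30 min. Each pair was higher by 0.53 to 0.74, and the mean difference was 0.63 ± 0.23 (1.55-fold; unadjusted p 0.0136, adjusted p 1.00 in limma). Lgals3bp, a secreted glycoprotein, was higher by 0.34, 0.34 and 0.33 in the 3 pairs. Ppp1r15a, which reverses the translation block of stressed cells, was higher by 0.42 and Il1a, a cytokine, by 0.32. The transcription factor genes Foxd4 and Arnt were higher by 0.33 and 0.32.

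Other members of that group rested on the array numbered 1. Loxl1, a matrix cross-linking enzyme, read 6.13, 6.11 and 5.31 and then 7.29, 6.15 and 6.29; its difference was 0.73 ± 0.32, and 0.37 without that array. Cd74, the invariant chain of MHC class II, had a difference of 0.48 ± 0.19, and 0.17 without it. On its other probe sets the array numbered 1 at 30 min was above its partner by 2.16 to 2.90, while pairs 2 and 3 ran from -0.38 to 0.33. Of 12 leukocyte markers 9 had a higher mean, with a median of 0.08; 1, Cd74, had an unadjusted p under 0.05 upward (background 0.845%), and 3 (Cd74, Lyz2 and Fcgr2b) did not overlap upward (background 5.64%). A second probe set of the monocyte marker Cd14 was higher without overlap at 0.38 ± 0.16 (unadjusted p 0.0292 in limma), and Ptprc, the common leukocyte antigen, was at 0.03. The endothelial markers were higher in 5 of 5 genes (median 0.10), those of C cells and neuroendocrine cells in 10 of 11 (0.05), mesenchymal ones in 9 of 17 (0.01), epithelial ones in 5 of 11 (-0.05) and thyroid ones in 9 of 13 (0.05). Among these 5 lists 0 genes had an unadjusted p under 0.05. The part of RNA from other cell types in the results was not tested.

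**Figure D3:**
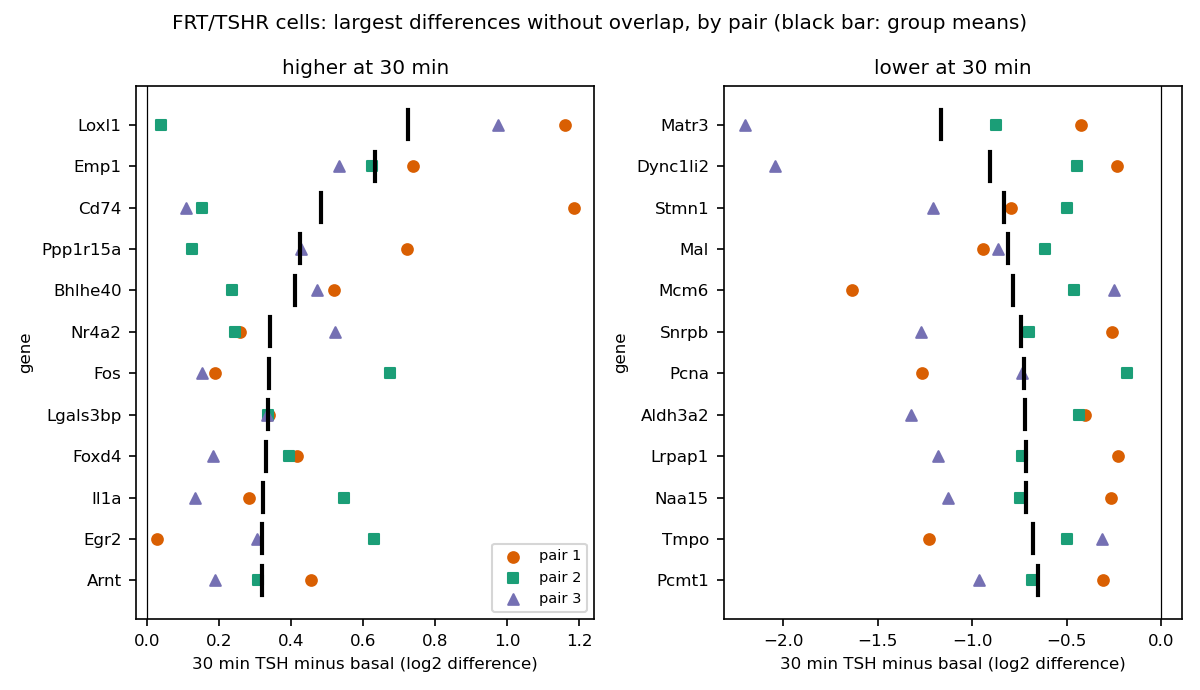
Differences between 30 min TSH and basal (log2, x axes) in each same-numbered pair of FRT/TSHR arrays for the 12 largest positive (left) and 12 largest negative (right) differences among genes without overlap, with black bars at the difference of group means. Emp1 and Lgals3bp are even across pairs, Cd74 rests on pair 1, and Matr3 and Dync1li2 reach below -2 in pair 3.

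At a difference of 0.5 or more, 95 probe sets were lower and 14 higher. Mal, a lipid raft protein of epithelial apical transport, had the smallest p of all probe sets, with 9.50, 8.86 and 9.02 in basal cells and 8.55, 8.25 and 8.16 at 30 min. All 3 arrays at 30 min lay below all basal arrays, and the difference was -0.81 ± 0.17 (unadjusted p 0.000280, adjusted p 1.00 in limma). Matr3, a nuclear matrix RNA-binding protein, read 7.14, 7.01 and 7.28 and then 6.71, 6.13 and 5.08, a difference of -1.17 ± 0.33. Stmn1, which destabilises microtubules, had 9.14, 8.80 and 9.36 and then 8.34, 8.30 and 8.15, a difference of -0.83 ± 0.19.

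A separate set of low values belonged to the 30 min arrays numbered 2 and 3. The spliceosome gene Snrpb, the acetyltransferase subunit Naa15, the receptor chaperone Lrpap1 and the protein repair enzyme Pcmt1 had differences of -0.74, -0.71, -0.72 and -0.65. In all of them pair 1 was least affected (-0.26, -0.27, -0.23 and -0.31) and pair 3 most (-1.27, -1.13, -1.18 and -0.96). Without the 30 min array numbered 1, the smallest adjusted p in limma, 0.0598, was shared by Aktip (-1.03), the integrin Itgb1 (-1.17) and a probe set of the sodium pump subunit Atp1b1 (-1.84). The Atp1b1 probe set read 8.93, 8.42 and 9.01 and then 8.59, 7.12 and 6.77, but the brightest Atp1b1 probe set gave -0.44 and the third 0.00. Dync1li2, a dynein light intermediate chain at -0.91, had other probe sets at -0.04, 0.08 and -0.11, and the aldehyde dehydrogenase Aldh3a2 at -0.72 had others at -0.02 and -0.05. Several of these low values thus came from 1 probe set of a gene and not from its others. Lrpap1 went the other way, since its other probe sets, at -0.22, -0.16 and -0.26, were lower in every pair.

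The cell division genes had lower means throughout, and the arrays numbered 1 weighed most on them. All 16 measured DNA replication genes had a lower mean at 30 min, with a median difference of -0.28, and so did all 16 mitosis genes, with a median of -0.39, against 42.9% of all genes. None passed in limma; 5 mitosis genes and 0 replication genes had an unadjusted p under 0.05 downward (background 1.6%), and 5 and 2 did not overlap (background 2.45%). The replication clamp gene Pcna read 10.29, 9.84 and 10.26 and then 9.03, 9.67 and 9.52, and the helicase gene Mcm6 had a basal mean of 8.92 ± 0.07 (SD, n = 3) and then read 7.26, 8.42 and 8.75. The array numbered 1 was lowest at 30 min for both genes.

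Within pairs the replication list had medians of -0.89, -0.01 and -0.07, and the mitosis list -1.03, -0.14 and -0.20. Without the 30 min array numbered 1 the medians were -0.06 and -0.24. For mitosis the basal array numbered 1 was also high, which widened pair 1. Against the basal mean that list's average was 0.28, -0.15 and -0.13 on the basal arrays numbered 1, 2 and 3. On the 30 min arrays it was -0.62, -0.31 and -0.27, below all basal arrays. The mitotic kinase gene Plk1 was more even, at -0.39, -0.19 and -0.28 in the 3 pairs, with a difference of -0.29 ± 0.12. Cdk1, the kinase that starts mitosis, had pair differences of -1.49, -0.30 and -0.28, and Kif2c, a kinetochore motor, had -1.04, -0.49 and -0.25. Of 15 genes of G1 cyclins, their kinases and inhibitors 13 had a lower mean, with a median of -0.15. The CDK inhibitor Cdkn1a went the other way, higher by 0.18, 0.28 and 0.38 in the 3 pairs. Whether fewer dividing cells or less RNA per cell underlies these values cannot be told apart in bulk RNA.

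**Figure D4:**
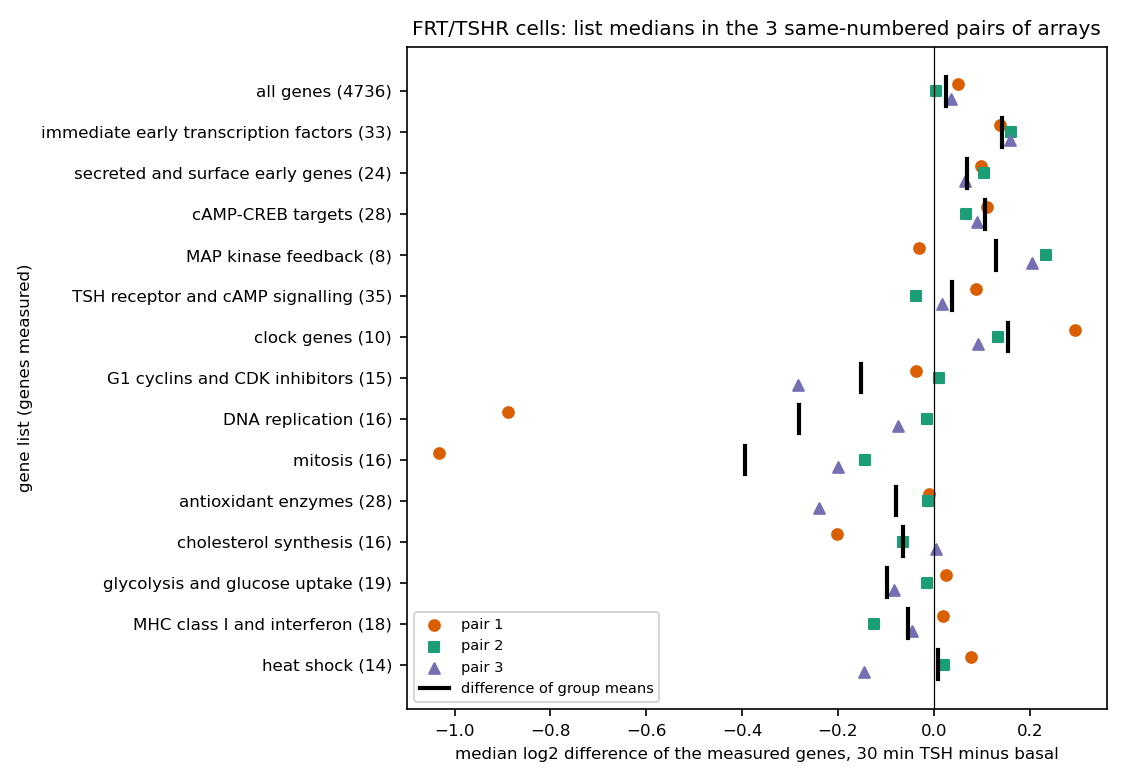
Median log2 difference between 30 min TSH and basal (x axis) over the measured genes of each list (y axis, number of genes in brackets) in the 3 same-numbered pairs of FRT/TSHR arrays, with black bars for the difference of group means. DNA replication and mitosis lie at -0.89 and -1.03 in pair 1 and between -0.20 and -0.01 in pairs 2 and 3. The basal array of pair 1 is high for mitosis (average 0.28 against the basal mean). Immediate early transcription factors lie at 0.14 to 0.16 in all 3 pairs, with the basal array of pair 1 low for that list (average -0.11).

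All 10 measured clock genes had a higher mean, with a median of 0.16, and 3 of them did not overlap (background 5.64%). None passed in limma, and 0 had an unadjusted p under 0.05 (background 0.845%). Bhlhe40, a repressor in the clock that is also an early gene, read 7.38, 7.57 and 7.77 and then 7.90, 7.81 and 8.24, a difference of 0.41 ± 0.27. Nr1d1, the receptor REV-ERB alpha, was higher by 0.19, 0.17 and 0.35 in the pairs, and its second probe set by 0.17, 0.02 and 0.42. In 6 of the 10 genes all 3 pairs were higher, as in 20.3% of all genes.

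The lists of other pathways had medians between -0.10 and 0.02. NF-kB response genes had 6 of 10 members higher and a median of 0.01; Irf1, an interferon response factor, was lowest at -0.57 ± 0.28, with pair differences of 0.22, -1.19 and -0.73. Growth receptor and MAP kinase pathway genes had 13 of 20 higher (median 0.02), heat shock genes 7 of 14 (0.01), cholesterol synthesis genes 7 of 16 (-0.06) and MHC class I and interferon genes 7 of 18 (-0.05). Antioxidant enzymes had 7 of 28 higher and a median of -0.08, with the glutathione synthesis subunit Gclm at -0.31 ± 0.12. Glycolysis and glucose uptake genes had 8 of 19 higher and a median of -0.10, with the lactate dehydrogenase gene Ldhb at -0.58 ± 0.24. None of these genes passed. Insig1, which restrains sterol synthesis, was higher by 0.36, 0.30 and 0.27 in the pairs, while its second probe set differed by -0.02.

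At 17 h of TSH 0 probe sets passed in this line either, and the values stand beside those at 30 min with the basal arrays shared by both. Egr1 was at -0.17 ± 0.58 after 17 h, Dusp1 at 0.05, Dusp5 at 0.10, Areg at -0.11 and Emp1 at -0.11, where the 30 min differences had been 1.47, 0.43, 0.54, 0.41 and 0.63. Nr4a2 was at 0.25, beside 0.34 at 30 min. Mal was at -0.48 and Stmn1 at -0.35, and Matr3 at 0.00. Of 16 DNA replication genes 1 had a higher mean at 17 h, with a median of -0.33. For the 16 mitosis genes the values were 1 and -0.40, beside 2491 higher of all 4736 genes. On the 17 h arrays numbered 1, 2 and 3 the replication list's average was -0.88, -0.14 and 0.07 against the basal mean. For the mitosis list it was -0.62, -0.43 and -0.05.

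FRTL5 cells gave a measure of what the early response can look like on this array type. There 21 probe sets, or 0.24% of those tested, passed at 30 min in limma, all upward; 18 of them belong to 12 named genes and 3 have no gene symbol. In FRT/TSHR cells 19 of these 21 had a higher mean, as did 58.1% of all probe sets. Their median difference was 0.31, against 2.08 in FRTL5. The 21 were chosen by their FRTL5 values, which enlarges the FRTL5 side of that comparison, and several genes count more than once. By pair, 11, 16 and 19 of the 21 were higher in FRT/TSHR, with medians of 0.01, 0.42 and 0.49. Line, TSH dose and medium differ together and cannot be told apart.

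The difference between lines was itself tested as the FRT/TSHR effect minus the FRTL5 effect. It passed for 3 probe sets of 8740 (0.0343%) in limma, all with the smaller effect in FRT/TSHR, and 227 had an unadjusted p under 0.05. Nr4a1 was increased by 3.41 ± 0.33 in FRTL5 and differed by 0.12 ± 0.33 in FRT/TSHR, a difference between effects of -3.29 (adjusted p 0.0128 in limma). Its second probe set gave -3.19 (adjusted p 0.0335 in limma), and Nr4a3 gave -1.38 (adjusted p 0.000298 in limma), from 1.46 in FRTL5 and 0.08 in FRT/TSHR. For Egr1 the difference was -2.45 ± 0.83 and did not pass (adjusted p 1.00 in limma), nor did that for Dusp1 at -1.66 (adjusted p 0.295 in limma), Fos at -2.11 or Ccn1 at -2.35. With the replicate number as a block 8 probe sets passed, the 3 of Nr4a1 and Nr4a3 and in addition 2 of the 3 Dusp1 probe sets at -1.66 and -2.08, Ier3 at -1.58, Mat2a at -0.82 and the dimmer Nr4a2 probe set at -1.14. The third Dusp1 probe set, at -1.64, and the brighter Nr4a2 probe set, at -0.21, did not pass with the block (adjusted p 0.177 and 0.791 in limma). Nor did the second Ier3 probe set, at -0.92 (adjusted p 0.259 in limma with the block). Areg and Emp1 pointed the other way, by 0.30 ± 0.23 and 0.69 ± 0.32 in favour of FRT/TSHR, without passing.

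**Figure D5:**
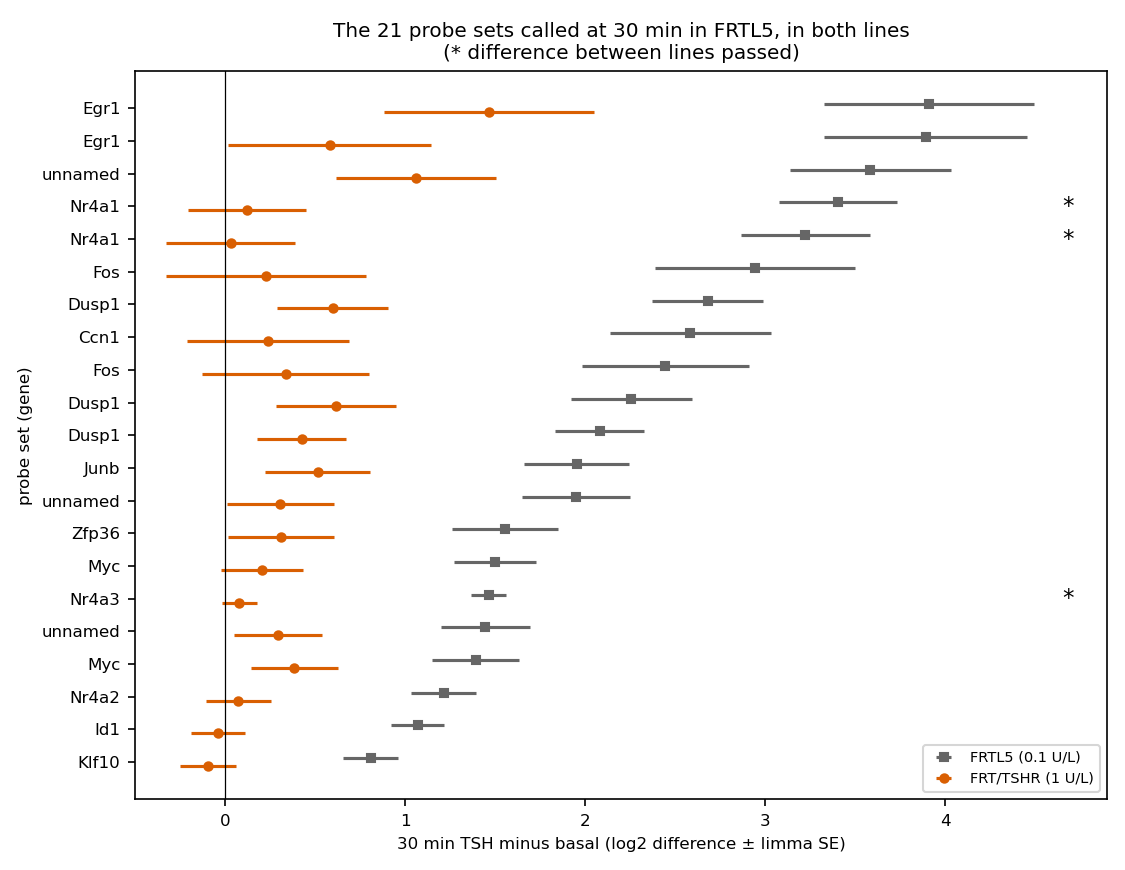
Difference between 30 min TSH and basal (log2 with limma SE, x axis) for the 21 probe sets called in FRTL5 (y axis), in FRTL5 at 0.1 U/L (grey squares) and FRT/TSHR at 1 U/L (orange circles), with an asterisk where the difference between lines passed. FRT/TSHR values run from -0.09 to 1.47, to the left of FRTL5 for every probe set, and Nr4a1 and Nr4a3 carry the asterisks. Choosing the probe sets by FRTL5 enlarges the FRTL5 values.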

How the data were processed

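Deposited log2 values of a rat Affymetrix array, 1 per probe set, were made by the authors with RMA (background correction, normalization across arrays, summary over probes), per the submitters' processing notes; its version and settings are not given in the sources used here, and RMA compresses differences of dim probe sets. Scanner files and detection calls were not used here. Of 8799 probe sets 59 controls were left out. The platform annotation gave 1 gene symbol to 7006 of the 8740 tested, several to 308 and none to 1426, and only the first kind was named. For each of 4736 genes the brightest probe set over all arrays stood for the gene. Limma 3.58.1 in R 4.3.3 fitted 6 group means to all 18 arrays (lmFit, eBayes, 12 residual and 3.60 prior degrees of freedom), with two-sided tests and Benjamini-Hochberg adjustment over all probe sets at 0.05, and 95% intervals. The fit was tested on simulated data. Replicates are biological, per the series' design text, and the number of arrays limits the precision.

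Same-numbered arrays were treated as pairs: the deviations of basal and 30 min arrays from their group means correlated at 0.43, 0.50 and 0.16 for the numbers 1, 2 and 3, although the labels do not say what a number marks.

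Named were the marker genes Egr1, Nr4a2, Areg and Dusp1, the 12 largest differences in each direction among genes whose groups did not overlap, the 4 lowest unadjusted p-values of each list, and a set of known early genes; the text leaves some of these out. Fosb and Btg2 were not the single symbol of any probe set, so neither is named here. Whether probe sets without a symbol measure them was not tested. The members, the lists and the tests were chosen with earlier results of these data known. Promoters came from RefSeq (GRCr8), and 3879 of the 4736 genes were matched by symbol. The alternatives were the replicate block, fewer groups in the fit, median centring, renewed quantile normalization, a filter on low signal, a variance trend, and arrays left out.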

Additional observations from a re-analysis of the deposited data

Results flagged for a closer look

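For 3 probe sets the 30 min effect of TSH differed between the lines in the limma test of the difference itself. Nr4a1 differed by -3.29 (95% interval -4.27 to -2.30; adjusted p 0.0128) and, on its second probe set, by -3.19 (95% interval -4.27 to -2.12; adjusted p 0.0335). In FRT/TSHR the mean differences were 0.12 and 0.03, and in FRTL5 they were 3.41 and 3.22. On both probe sets the FRT/TSHR 30 min arrays numbered 1 and 2 lay above all basal arrays, and the array numbered 3 below them. Nr4a3 differed by -1.38 (adjusted p 0.000298 in limma), while its 2 dimmer probe sets, at -0.18 and -0.99, did not pass. Line, TSH dose and medium cannot be told apart in any of them.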

How the results depend on the processing

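The count of FRT/TSHR probe sets passing at 30 min was 0 under all 18 alternatives run, with 148 to 587 at an unadjusted p under 0.05 in limma. The smallest adjusted p over these was 0.0598, without the 30 min array numbered 1, and 0.0712 without both arrays of that number. With the replicate block the counts at an unadjusted p under 0.05 were 587 (18 arrays) and 519 (6 arrays), against 208 without it, and the block changed no call of that comparison. The difference between lines passed for 3 probe sets, for 8 with the replicate block, for 25 without the FRTL5 arrays numbered 1 (their actin 3' minus 5' difference was 1.13 to 1.22), for 1 without both FRT/TSHR arrays numbered 1, 2 or 3, and for 1 to 2 when 1 FRT/TSHR array was left out. The count of 1 came without basal replicate 2 and without 30 min replicate 3.

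The median of immediate early transcription factors was 0.11 over the mean of all probe sets of a gene and 0.11 with median centring, and 0.084 to 0.21 with 1 array left out. That of the cAMP-CREB targets was 0.077 with median centring and 0.079 to 0.14 with 1 array left out. DNA replication genes higher at 30 min numbered 0 to 2, and mitosis genes 0 to 1, with 1 array left out. Of 1256 single-gene values 12 changed sign, in 6 genes. With 1 array left out Nr4a1 ran from -0.013 (without 30 min replicate 2) to 0.28, Ccn1 from -0.17 (without 30 min replicate 3) to 0.62, Id1 from -0.084 to 0.038 (without basal replicate 2), Crem from -0.17 to 0.20 (without 30 min replicate 3) and Tshr from -0.060 (without 30 min replicate 2) to 0.13. Id1 was 0.034 after renewed quantile normalization. Without both arrays of a number, Id1 was 0.081 (number 2), and Ccn1, Crem and Gnas were -0.16, 0.21 and 0.036 (number 3). The cause was not tested, except that fewer arrays were fitted where some were left out. Signal over background was not available from these values, so differences of dim genes such as Nr4a2 carry an unknown compression.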

Other observations

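Of 1206 expressed sequence tag probe sets whose identifiers begin with rc_AI 33 (2.74%) were lower by 0.5 or more at 30 min, against 62 (0.823%) of the other 7534, while 0 and 14 were higher by 0.5 or more. Their median difference was 0.00, beside 0.03 for the others. Itgb1, Aktip, Anxa4 and Ywhaz, at -0.80, -0.85, -0.68 and -0.63 on probe sets of that kind, had differences of -0.10, 0.16, 0.01 and -0.11 in the pair numbered 1. This grouping was made after the values were seen, and it was not tested.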
